A study of Mus musculus with 6 samples.

Results

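The genes described here are 10 markers of pancreatic duct epithelium, measured as RNA in isolated mouse islets. They comprise the keratins Krt19, Krt7, Krt8 and Krt18, the secreted proteins Clu, Mmp7 and Spp1, the transcription factor Sox9, and the surface proteins Epcam and Muc1. The genes were taken by name, without reference to a threshold, and all 10 were found among the 34745 genes of the deposited table. The 6 libraries fall into 3 groups of 2. KO+DNMT3A denotes islets of βRapKO mice in which Dnmt3a was expressed from a lentivirus (LvDnmt3a), KO denotes βRapKO islets, and WT denotes wild-type islets. All groups were C57BL/6 mice aged 8 weeks. βRapKO is a knockout named for β cells and for Raptor, the mTORC1 subunit encoded by Rptor, and Dnmt3a encodes a de novo DNA methyltransferase. The series asks whether restored DNMT3A lets adult βRapKO β cells set up their proper transcriptome. The labels give neither the Cre driver nor the allele, nor the number of animals behind a library, and they leave the GFP in the names of the KO and WT columns unexplained. Because separate animals are not stated for the 2 libraries of any group, p-values measure only the spread between these libraries.

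The ducts of the pancreas are a simple epithelium that carries digestive enzymes and secretes bicarbonate, and islets lie among them. Duct cells hold a keratin cytoskeleton built of obligate pairs of a type I chain (Krt18 or Krt19) and a type II chain (Krt7 or Krt8). Duct fragments can be carried along when islets are isolated by digestion, and some of these genes are not restricted to ducts: Krt8, Krt18 and Epcam are also expressed in islet endocrine cells, and Spp1 and Clu in several other cell types.

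The depth and makeup of the libraries varied. Fragments on genes, inferred from the steps of the FPKM values, numbered 1920397 and 1117581 in KO+DNMT3A, 1426104 and 780504 in KO, and 244735 and 973699 in WT, with replicate 1 given before replicate 2. WT replicate 1 was the shallowest: there, a single fragment of a 2 kb transcript corresponds to 2.04 FPKM, against 0.260 FPKM in KO+DNMT3A replicate 1, the deepest. Ins1 and Ins2 together held 16.5% and 23.6% of summed FPKM in KO+DNMT3A, 30.5% and 0.109% in KO, and 0.170% and 23.9% in WT. Thus 1 KO and 1 WT library contained little insulin RNA. Rptor had 0.714 and 1.93 FPKM in KO+DNMT3A islets, 0.378 and 1.51 FPKM in KO islets, and 0.800 and 1.06 FPKM in WT islets, so the groups overlapped and libraries are called by their labels. Dnmt3a had 3.62 and 3.80 FPKM in KO+DNMT3A islets, 3.19 and 2.50 FPKM in KO islets, and 2.94 and 4.43 FPKM in WT islets. FPKM is a level scaled to transcript length and sequencing depth, so it is a share of each library and not an amount per cell.

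The promoters of 4 genes are shown because their genes mark the ends of the range of behaviour described below: Mmp7 and Spp1 varied widely between libraries, Krt18 varied least, and Muc1 followed another pattern. Each sequence is the 250 bases before the first listed start, from RefSeq on GRCm38.p6, read 5′ to 3′, and capitals mark matches to 3 motifs on either strand: the AP-1 motif TGANTCA, the RUNX motif ACCACA and the TATA box TATAAA.
Mmp7, chr9:7691840-7692089, plus strand: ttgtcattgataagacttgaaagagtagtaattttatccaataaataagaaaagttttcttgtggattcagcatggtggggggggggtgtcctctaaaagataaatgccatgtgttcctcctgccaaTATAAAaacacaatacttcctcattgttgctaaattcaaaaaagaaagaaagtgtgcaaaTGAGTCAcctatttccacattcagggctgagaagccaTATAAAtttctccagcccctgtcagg
Spp1, chr5:104434861-104435110, plus strand: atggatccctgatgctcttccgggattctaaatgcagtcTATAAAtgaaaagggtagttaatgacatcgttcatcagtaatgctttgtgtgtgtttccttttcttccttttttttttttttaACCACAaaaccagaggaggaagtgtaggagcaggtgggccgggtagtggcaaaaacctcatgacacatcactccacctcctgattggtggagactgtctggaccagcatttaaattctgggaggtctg
Krt18, chr15:102027966-102028215, plus strand: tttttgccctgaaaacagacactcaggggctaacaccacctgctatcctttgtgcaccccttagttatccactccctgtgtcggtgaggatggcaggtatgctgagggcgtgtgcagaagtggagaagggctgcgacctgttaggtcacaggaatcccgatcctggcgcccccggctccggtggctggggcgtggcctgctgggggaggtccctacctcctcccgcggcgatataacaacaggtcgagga
Muc1, chr3:89228806-89229055, plus strand: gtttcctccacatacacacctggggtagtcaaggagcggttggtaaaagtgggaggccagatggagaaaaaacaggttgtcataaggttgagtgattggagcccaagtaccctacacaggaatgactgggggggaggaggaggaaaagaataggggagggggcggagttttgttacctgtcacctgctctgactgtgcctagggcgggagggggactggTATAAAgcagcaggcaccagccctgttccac
The motifs were chosen with the sequences and values known, and a match is a description of letters. The window of Mmp7 held the AP-1 motif 63 bases before the start, a motif found in 6.75% of the 32851 promoters searched, and the TATA box 123 and 26 bases before it. That of Spp1 held the RUNX motif 128 bases before the start, found in 14.0% of promoters, and a TATA box 211 bases before it. That of Muc1 held a TATA box 31 bases before the start, a motif found in 12.4% of promoters. None of the 3 motifs was in the window of Krt18, nor in those of Krt7, Krt8 and Epcam. No matches overlapped. Of the 10 genes, 7 matched the promoter table; Krt19, Clu and Sox9 are named only.

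The 10 genes set apart single libraries more than groups. Their summed level was 1664 and 423 FPKM in KO+DNMT3A islets, 571 and 340.0 FPKM in KO islets, and 2878 and 459.5 FPKM in WT islets, which is 0.324% and 0.0773%, 0.107% and 0.0532%, and 0.501% and 0.0832% of summed FPKM. KO+DNMT3A replicate 1 and WT replicate 1 were the 2 highest libraries for 7 of the 10 genes, namely Krt19, Krt7, Krt8, Clu, Mmp7, Spp1 and Sox9. Over all 13233 genes tested, those reaching 1 FPKM in 2 or more libraries, 8.27% had this pattern. These 2 libraries belong to different groups and were singled out from the values, so no test was made of them. In bulk RNA, more cells of a type and more RNA per cell cannot be told apart.

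**Figure D1:**
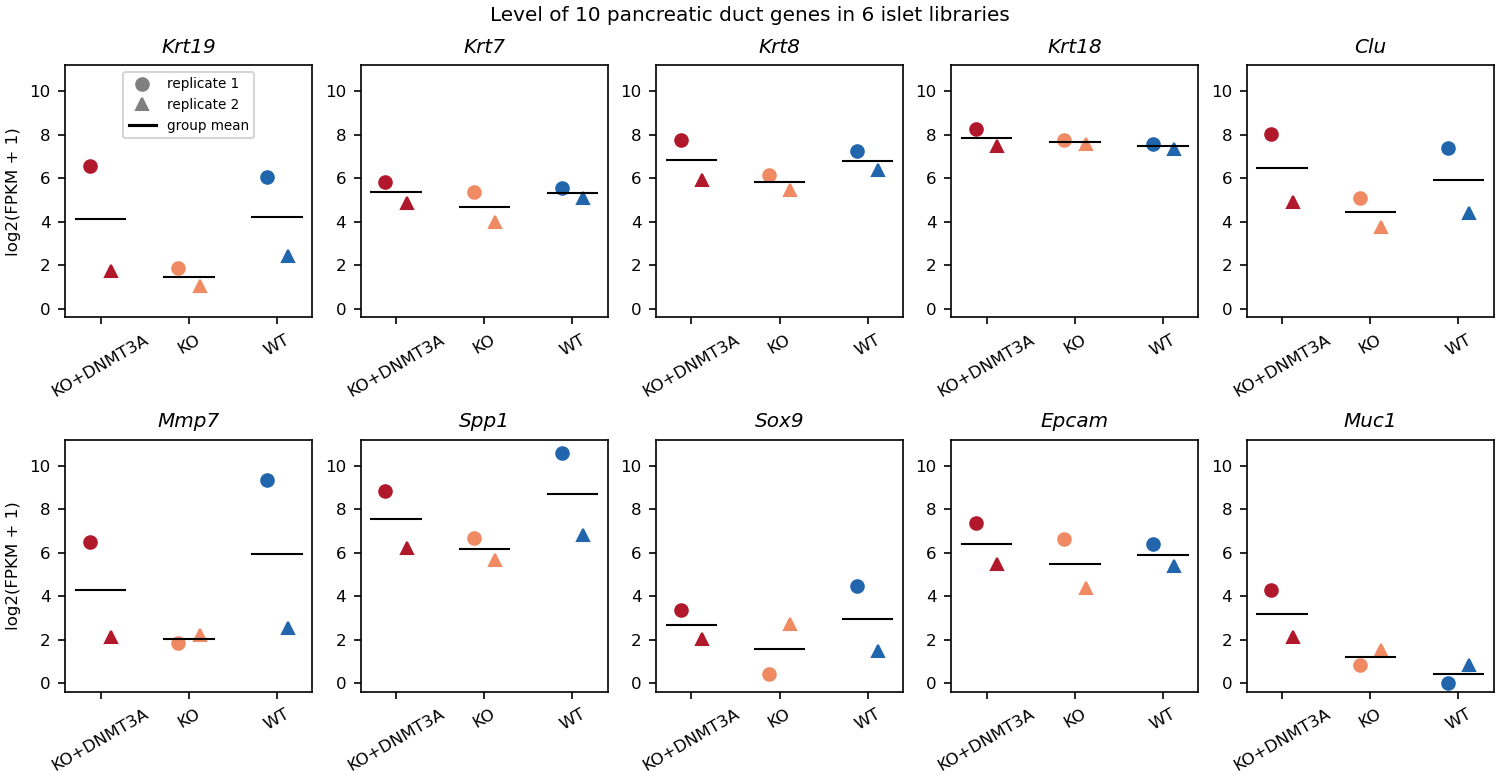
Level of each of the 10 duct genes in each library as log2(FPKM + 1), with groups from left to right KO+DNMT3A, KO and WT. Circles are replicate 1, triangles replicate 2 and lines group means; Krt19, Clu, Mmp7 and Spp1 have 1 high point in KO+DNMT3A and 1 in WT, while Krt18 lies between 162 and 307 FPKM throughout.

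Among the type I keratins, Krt19 and Krt18 differed most in behaviour. Krt19, the keratin most used to mark duct cells (ENSMUSG00000020911, chr11:100140810-100148665, minus strand), had 94.6 and 2.30 FPKM in KO+DNMT3A islets, 2.70 and 1.10 FPKM in KO islets, and 64.8 and 4.40 FPKM in WT islets. It was high in 1 library of KO+DNMT3A and 1 of WT and low in the other 4, and the KO libraries lay below both WT libraries. The nearest of these, KO replicate 1 and WT replicate 2, correspond to only 6.08 and 6.75 fragments on its longest transcript. The lowest value, in KO replicate 2, was below the 2.44 FPKM that 3 fragments on its longest transcript correspond to there. Krt18, the type I keratin of most simple epithelia (ENSMUSG00000023043, chr15:102028180-102032027, plus strand), had 307 and 176 FPKM in KO+DNMT3A islets, 219 and 189 FPKM in KO islets, and 193 and 162 FPKM in WT islets. Its highest and lowest values differed by 1.90 times, the least of the 9 genes above 0 in all libraries, and all groups overlapped.

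The type II keratins lay between these extremes. Krt8, the usual partner of Krt18 (ENSMUSG00000049382, chr15:101996698-102004482, minus strand), had 219 and 60.5 FPKM in KO+DNMT3A islets, 71.1 and 43.3 FPKM in KO islets, and 154 and 81.4 FPKM in WT islets. Both KO libraries were below both WT libraries, and KO+DNMT3A overlapped both other groups. Krt7, a type II keratin of ductal epithelia (ENSMUSG00000023039, chr15:101411043-101430313, plus strand), had 55.9 and 28.4 FPKM in KO+DNMT3A islets, 40.1 and 14.9 FPKM in KO islets, and 45.6 and 33.0 FPKM in WT islets. Its groups overlapped in each comparison, with a 3.75-fold spread from KO replicate 2 to KO+DNMT3A replicate 1. Annotated antisense-strand transcripts overlap exons of Krt7 and Krt8, and whether the authors' counting used strand is not given in the sources used here.

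The make-up of the keratin pool also differed between libraries. Krt19 made up 23.5% and 1.29% of the type I keratin FPKM (Krt18 and Krt19) in KO+DNMT3A, 1.22% and 0.579% in KO, and 25.2% and 2.64% in WT. The ratio of type II to type I keratin FPKM was 0.683 and 0.499 in KO+DNMT3A, 0.502 and 0.307 in KO, and 0.775 and 0.687 in WT. Both measures were highest in WT replicate 1 and lowest in KO replicate 2. The Krt19 share was next highest in KO+DNMT3A replicate 1, but the type II to type I ratio of that library, 0.683, was level with the 0.687 of WT replicate 2. The Krt8 to Krt18 ratio, 0.712 and 0.344 in KO+DNMT3A, 0.325 and 0.230 in KO, and 0.799 and 0.502 in WT, had the same ends.

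**Figure D2:**
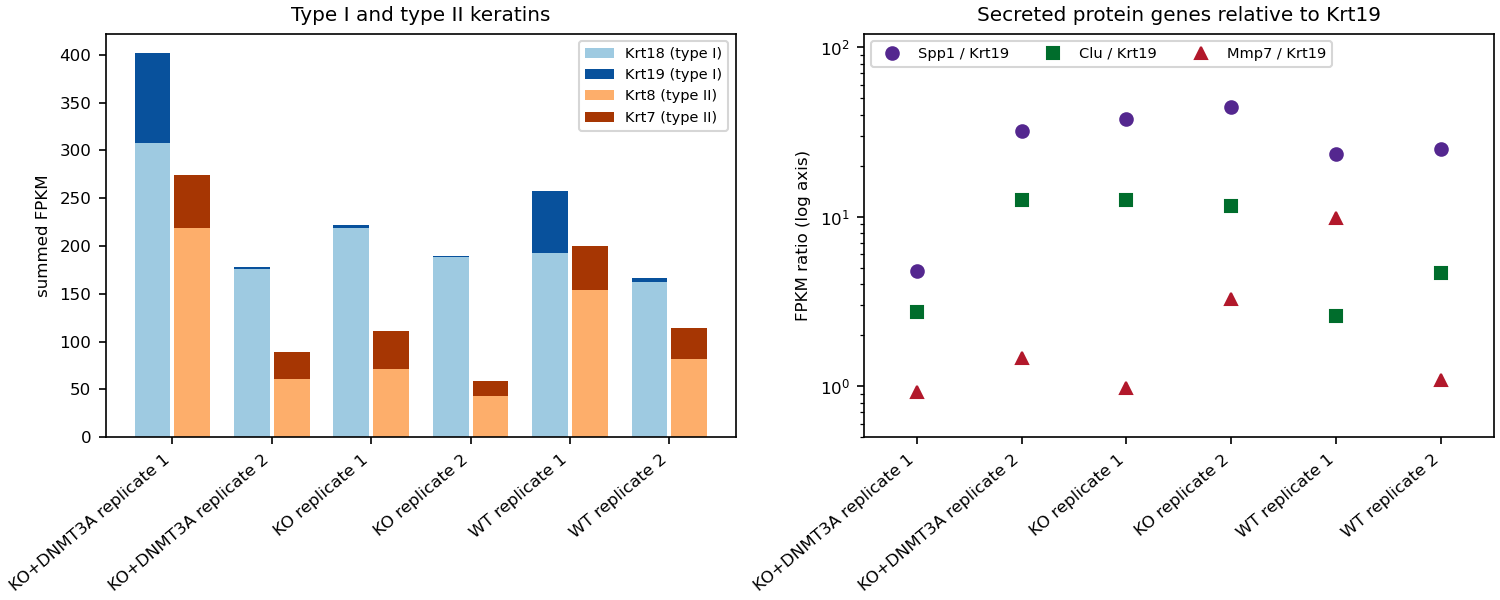
Left, summed FPKM of type I keratins (Krt18 and Krt19) and type II keratins (Krt8 and Krt7) as stacked bars for each library, ordered KO+DNMT3A, KO, WT; Krt19 is visible mainly in KO+DNMT3A replicate 1 and WT replicate 1. Right, FPKM ratios of Spp1, Clu and Mmp7 to Krt19 in each library on a log axis, each symbol being 1 ratio. Spp1 to Krt19 runs from 4.79 to 44.5. Outside KO+DNMT3A replicate 1 and WT replicate 1 the ratios rest on few Krt19 fragments.

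Among the genes of secreted proteins, Mmp7 had the widest range of the 10 genes. Mmp7, the matrix metalloproteinase matrilysin (ENSMUSG00000018623, chr9:7692090-7699585, plus strand), had 87.3 and 3.35 FPKM in KO+DNMT3A islets, 2.63 and 3.60 FPKM in KO islets, and 639 and 4.81 FPKM in WT islets. Its single annotated transcript allowed whole fragments to be recovered, within 0.02 of a whole number: 179 and 4 in KO+DNMT3A, 4 and 3 in KO, and 167 and 5 in WT. The high values therefore rest on well over 100 fragments each and the 4 low ones on 3 to 5. The 95% exact Poisson interval was 75.0 to 101.0 FPKM in KO+DNMT3A replicate 1 and 546 to 744 FPKM in WT replicate 1, which do not overlap; such intervals cover counting error only. Spp1, the secreted phosphoprotein osteopontin (ENSMUSG00000029304, chr5:104435118-104441050, plus strand), had 453 and 73.8 FPKM in KO+DNMT3A islets, 102 and 48.9 FPKM in KO islets, and 1510.4 and 111 FPKM in WT islets. Both KO libraries lay below both WT libraries, by 102 against 111 FPKM at the nearest, and KO+DNMT3A overlapped both. An unclassified annotated transcript on the same strand, Gm42793, overlaps exons of Spp1 and could share its reads. Clu, the secreted chaperone clusterin (ENSMUSG00000022037, chr14:65968483-65981547, plus strand), had 259 and 29.0 FPKM in KO+DNMT3A islets, 33.7 and 12.7 FPKM in KO islets, and 167 and 20.4 FPKM in WT islets. Its groups overlapped in every comparison, with the highest value 20.4 times the lowest.

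The high libraries were not alike in their proportions. Krt19, Krt7, Krt8, Krt18, Clu and Epcam had between 1.22 and 1.91 times as many FPKM in KO+DNMT3A replicate 1 as in WT replicate 1. In contrast, WT replicate 1 had 7.32 times the Mmp7, 3.33 times the Spp1 and 2.26 times the Sox9 FPKM of KO+DNMT3A replicate 1. The ratio of Mmp7 to Krt19 was 0.923 and 1.46 in KO+DNMT3A, 0.971 and 3.28 in KO, and 9.86 and 1.09 in WT. The ratio of Clu to Krt19 was 2.74 and 12.6 in KO+DNMT3A, 12.5 and 11.6 in KO, and 2.58 and 4.63 in WT. It was thus nearly the same in the libraries with high Krt19 and higher in the other 4. In those 4 the Krt19 values correspond to few fragments on its longest transcript. These were 4.05 in KO+DNMT3A replicate 2, 6.08 and 1.35 in KO, and 6.75 in WT replicate 2. Ratios to Krt19 are therefore imprecise there. Ranked by FPKM within a library, Spp1 was first in KO+DNMT3A replicate 1, before Krt18, and in WT replicate 1, before Mmp7, whereas Krt18 was first and Spp1 the next in the other 4 libraries.

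Sox9, a transcription factor of duct and pancreatic progenitor cells (ENSMUSG00000000567, chr11:112782224-112787760, plus strand), was the least abundant or next to least abundant of the 10 genes in 5 of the 6 libraries. It had 9.19 and 3.03 FPKM in KO+DNMT3A islets, 0.339 and 5.58 FPKM in KO islets, and 20.8 and 1.74 FPKM in WT islets, from 73 and 14, 2 and 18, and 21 and 7 whole fragments. The 2 highest values were again in KO+DNMT3A replicate 1 and WT replicate 1, and the groups overlapped. Within KO the 2 libraries differed beyond counting error, with 95% exact Poisson intervals of 0.0411 to 1.23 FPKM in replicate 1 and 3.31 to 8.81 FPKM in replicate 2. The interval of KO replicate 2 overlapped the 7.21 to 11.6 FPKM of KO+DNMT3A replicate 1.

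The surface protein genes followed other patterns. Epcam, an adhesion molecule of epithelia (ENSMUSG00000045394, chr17:87635979-87651129, plus strand), had 161 and 43.4 FPKM in KO+DNMT3A islets, 98.3 and 19.5 FPKM in KO islets, and 84.1 and 40.3 FPKM in WT islets. In each group replicate 1 was higher, and the groups overlapped. Muc1, a membrane mucin of the apical surface (ENSMUSG00000042784, chr3:89229057-89233381, plus strand), had 18.2 and 3.33 FPKM in KO+DNMT3A islets, 0.782 and 1.91 FPKM in KO islets, and 0.764 FPKM in WT replicate 2, and it was listed at 0 in WT replicate 1. The KO+DNMT3A libraries were above all others and the KO libraries above both WT values, though the nearest of these, 0.782 in KO and 0.764 FPKM in WT, were under the 0.938 and 1.37 FPKM that 3 fragments correspond to there. In WT replicate 1, 3 fragments on the longest transcript of Muc1 correspond to 5.47 FPKM, more than the 3.33 FPKM of KO+DNMT3A replicate 2, so an order between these libraries was not detectable at this depth. A listed 0 may also be a failed estimate, since 3 of 20 genes used by every cell that were checked are listed at 0 in at least 1 library.

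The difference between the 2 libraries of each group was taken as log2 of FPKM plus 1 in replicate 1 minus that in replicate 2. In KO+DNMT3A all 10 genes were higher in replicate 1, with a median difference of 2.01, and 5 of them were at least 4-fold higher: Krt19 by 4.86, Mmp7 by 4.34, Clu by 3.12, Spp1 by 2.60 and Muc1 by 2.15 on the log2 scale. Of all genes tested, 2.53% were at least 4-fold higher in that library. In WT 9 of the 10 genes were higher in replicate 1, with a median of 2.01, and 5 were at least 4-fold higher: Mmp7 by 6.78, Spp1 by 3.76, Krt19 by 3.61, Sox9 by 2.99 and Clu by 2.98. There the share among all genes was 2.55%, and 0.0076% of genes had a difference as large as that of Mmp7, so it was the largest of all. In KO only Epcam was at least 4-fold higher in replicate 1, by 2.28, where 5.4% of all genes were. Sox9 was at least 4-fold lower there, with a difference of -2.30, where 1.38% of all genes were. The median over the 10 genes in KO was 0.76. Krt19, Clu, Mmp7 and Spp1 passed 4-fold in both KO+DNMT3A and WT, and their differences in KO were 0.82, 1.34, -0.34 and 1.05. With 1 library on each side, these differences have no test.

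**Figure D3:**
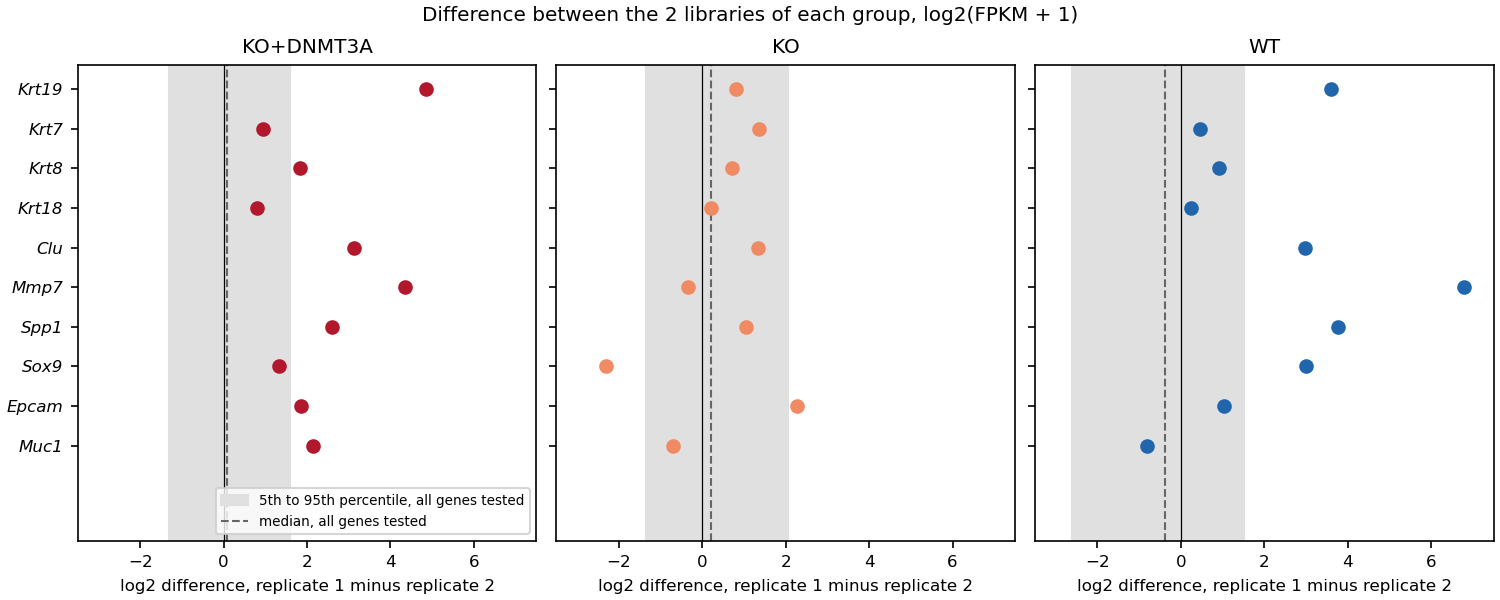
Difference between the libraries of each group, replicate 1 minus replicate 2 on the log2(FPKM + 1) scale, for the 10 duct genes, with panels from left to right KO+DNMT3A, KO and WT. Points are genes, grey bands span the 5th to 95th percentile of all genes tested and dashed lines their median; Krt19, Clu, Mmp7 and Spp1 lie right of the band in KO+DNMT3A and WT and inside it in KO.

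Markers of other cell types were read beside these values. The stellate and fibroblast markers summed to 379 and 159.9 FPKM in KO+DNMT3A islets, 282 and 265 FPKM in KO islets, and 1104 and 226 FPKM in WT islets, with all 9 above 0. Of these 9, Pdgfra, Col1a1, Col1a2 and Dcn were also highest in KO+DNMT3A replicate 1 and WT replicate 1, as were 8.27% of all genes tested. Dcn, encoding the matrix proteoglycan decorin, had 83.0 and 16.3 FPKM in KO+DNMT3A islets, 22.9 and 19.1 FPKM in KO islets, and 194 and 24.1 FPKM in WT islets. The part of stromal cells in the duct gene values was not tested. Macrophage markers, relevant to Spp1, were all above 0 in at least 1 library and summed to 236 and 158 FPKM in KO+DNMT3A islets, 510.2 and 320.0 FPKM in KO islets, and 531 and 504 FPKM in WT islets. WT replicate 1 was highest for both this sum and Spp1, while KO+DNMT3A replicate 1 was second highest for Spp1 and second lowest for the sum. The part of macrophages in the Spp1 values was not tested. Of 11 acinar markers, 8, among them Cpa1, Prss2 and Pnlip, were listed at 0 in all libraries, and the sum was 5.87 and 9.32 FPKM in KO+DNMT3A islets, 7.61 and 15.8 FPKM in KO islets, and 0 and 6.65 FPKM in WT islets. Of 5 mesothelial markers in the table, Upk3b, Upk1b, Wt1 and Lrrn4 were listed at 0 throughout. The fifth, Msln, had 40.6 and 1.27 FPKM in KO+DNMT3A islets, 3.65 and 0 FPKM in KO islets, and 0 and 14.6 FPKM in WT islets, so it was high in only one of the libraries high in Krt19. The libraries low in insulin RNA were at both ends: WT replicate 1, with 0.170% insulin, had the highest sum of the 10 genes and KO replicate 2, with 0.109%, the lowest.

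In the comparison of KO+DNMT3A with KO, which addresses the lentiviral Dnmt3a in βRapKO islets, all 10 had higher means in KO+DNMT3A and none passed. Differences are log2 fold changes of FPKM plus 1 from limma, fitted over all genes, with Benjamini-Hochberg adjustment. Krt19 averaged 48.4 ± 65.3 FPKM in KO+DNMT3A islets and 1.90 ± 1.14 FPKM in KO islets (SD, n = 2 each), a difference of 2.67 with a standard error of 1.63. Clu averaged 144 ± 163 and 23.2 ± 14.8 FPKM in the same groups, a difference of 2.02 (SE 1.27), and Mmp7 45.3 ± 59.3 and 3.11 ± 0.688 FPKM, a difference of 2.26 (SE 2.12). Without KO+DNMT3A replicate 1, Krt19, Clu and Mmp7 had differences of 0.24, 0.46 and 0.09. Muc1 averaged 10.8 ± 10.5 FPKM in KO+DNMT3A islets and 1.34 ± 0.794 FPKM in KO islets, a difference of 2.0 (SE 0.79). It had an unadjusted limma p of 0.0354 and an adjusted p of 1, where 1.11% of all genes had an unadjusted p under 0.05. Without KO+DNMT3A replicate 1 the Muc1 difference was 0.93.

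Muc1 was the only one of the 10 genes whose KO+DNMT3A and KO libraries did not overlap, in a comparison where 17.2% of all genes were higher without overlap. The remaining differences were 1.36 for Spp1 (SE 1.32), 1.11 for Sox9 (SE 1.13), 1.04 for Krt8 (SE 0.77), 0.91 for Epcam (SE 0.96), 0.68 for Krt7 (SE 0.69) and 0.19 for Krt18 (SE 0.60, -0.0083 after median scaling). Without KO+DNMT3A replicate 1, Spp1 had a difference of 0.059 and Krt8 of 0.12. The median over the 10 genes was 1.24, against 0.19 over all genes, of which 68.2% had higher and 31.8% lower means. Median scaling of the libraries moved the all-gene median to -0.012. Without KO+DNMT3A replicate 1 the median of the 10 genes was 0.16, and without KO+DNMT3A replicate 2 it was 2.31. Of 13233 genes tested, 0% passed an adjusted p of 0.05, with 147 at an unadjusted p under 0.05 and a smallest adjusted p of 1.

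Between KO+DNMT3A and WT the 10 genes showed no shared direction: 6 means were higher and 4 lower, with a median of 0.04 against 0.23 over all genes, of which 64.8% had higher and 35.2% lower means. Krt19 averaged 48.4 ± 65.3 FPKM in KO+DNMT3A islets and 34.6 ± 42.7 FPKM in WT islets (SD, n = 2 each), a log2 difference of -0.09 (SE 1.63); the mean of FPKM and the mean of log2 values differ in sign here. Mmp7 averaged 45.3 ± 59.3 FPKM in KO+DNMT3A islets and 322 ± 448 FPKM in WT islets, a difference of -1.64 (SE 2.12), and Spp1 263 ± 268 and 811 ± 990 FPKM, a difference of -1.16 (SE 1.32). Without WT replicate 1 these were 1.75 and 0.72, and the direction turned. Sox9 had a difference of -0.27 (SE 1.13), Clu of 0.56 (SE 1.27), Epcam of 0.52 (SE 0.96) and Krt18 of 0.39 (SE 0.60). Krt7 and Krt8 had differences of 0.04 each (SE 0.69 and 0.77), both -0.16 after median scaling, which moved the all-gene median to 0.027. Muc1 averaged 10.8 ± 10.5 FPKM in KO+DNMT3A islets and 0.382 ± 0.540 FPKM in WT islets, a difference of 2.78 (SE 0.79) with an unadjusted limma p of 0.00815 and an adjusted p of 0.997. It was again the only gene of the 10 whose groups did not overlap, in a comparison where 19.2% of all genes were higher without overlap and 2.86% had an unadjusted p under 0.05. In WT replicate 1, where Muc1 was listed at 0, 3 fragments correspond to 5.47 FPKM. That is more than the 3.33 FPKM of KO+DNMT3A replicate 2, so an order between these libraries was not detectable. Across all genes 0 passed, with 379 at an unadjusted p under 0.05. The median over the 10 genes was -0.91 without KO+DNMT3A replicate 1 and 1.13 without WT replicate 1.

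Between KO and WT, which addresses the effect of the knockout, 8 of the 10 genes had lower means in KO and none passed; over all genes, 47.3% had lower and 52.4% higher means. Mmp7 averaged 3.11 ± 0.688 FPKM in KO islets and 322 ± 448 FPKM in WT islets (SD, n = 2 each), a log2 difference of -3.90 (SE 2.12). Krt19 averaged 1.90 ± 1.14 FPKM in KO islets and 34.6 ± 42.7 FPKM in WT islets, a difference of -2.76 (SE 1.63), and Spp1 75.6 ± 37.8 and 811 ± 990 FPKM, a difference of -2.52 (SE 1.32). Without WT replicate 1 these 3 differences were -0.51, -0.95 and -0.64, in the same direction and much smaller. Krt8 averaged 57.2 ± 19.7 FPKM in KO islets and 118 ± 51.3 FPKM in WT islets, a difference of -1.0 (SE 0.77), which was -0.54 without WT replicate 1. These 4 genes were lower in both KO than in both WT libraries, as were 10.5% of all genes. Mmp7 had 4 and 3 fragments in KO and 5 in WT replicate 2, with overlapping 95% exact Poisson intervals. Krt19 corresponded to 6.08 and 1.35 fragments on its longest transcript in KO and to 6.75 in WT replicate 2. The order against WT replicate 2, and the differences without WT replicate 1, thus rest on few fragments for Mmp7 and Krt19. Clu had a difference of -1.46 (SE 1.27), Sox9 of -1.38 (SE 1.13), Krt7 of -0.64 (SE 0.69) and Epcam of -0.39 (SE 0.96), all with overlapping groups. Without WT replicate 1, Clu, Sox9 and Epcam had differences of 0.03, 0.12 and 0.13. Muc1, with 0.78 (SE 0.79), and Krt18, with 0.20 (SE 0.60), had higher means in KO. The Muc1 difference was 2.18 with a pseudocount of 0.1, 0.46 after quantile normalization and 0.015 without both libraries low in insulin. Muc1 had KO libraries above both WT libraries, as had 9.36% of all genes. Both KO values, 0.782 and 1.91 FPKM, were under the 5.47 FPKM that 3 fragments correspond to in WT replicate 1.

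The median over the 10 genes between KO and WT was -1.19, against 0.03 over all genes. It was -0.19 without WT replicate 1, and leaving out WT replicate 2 gave -2.16. Every adjusted limma p of the 10 genes was 1, and none had an unadjusted p under 0.05, which 1.81% of all genes (240) had. The smallest two-sided p that an exact permutation of 2 libraries against 2 allows is 0.333. On simulated data with the within-group spread pooled over all 3 groups, this fit of 13233 genes recovered 0 of 50 genes changed 16-fold. At this spread even such a change would thus not have been called. The 3 comparisons share libraries pair by pair: KO+DNMT3A enters both of its own comparisons, KO is set against KO+DNMT3A and against WT, and WT against both other groups. Opposite signs in KO+DNMT3A against KO and in KO against WT are therefore not separate observations.

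**Figure D4:**
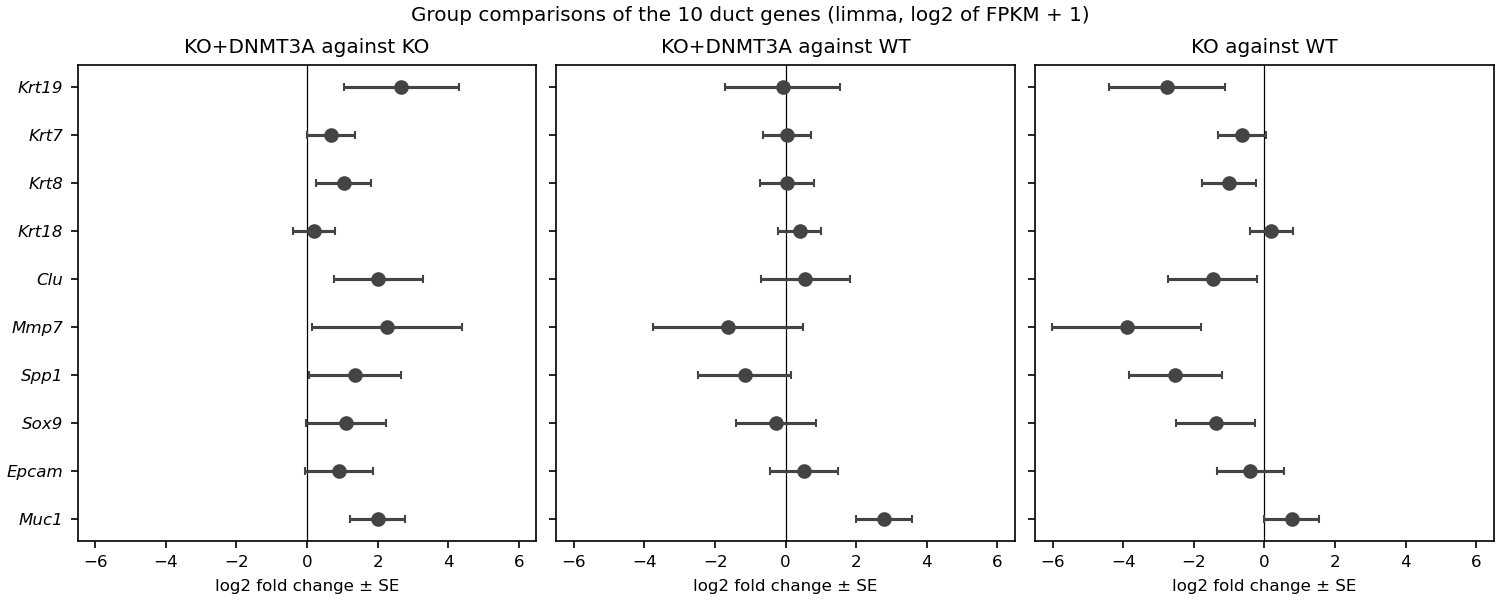
Log2 fold changes of the 10 duct genes with standard errors from limma on log2(FPKM + 1), for KO+DNMT3A against KO (left), KO+DNMT3A against WT (middle) and KO against WT (right). Points are fold changes and bars 1 standard error either side; Muc1 at 2.78 in the middle panel lies farthest from 0 relative to its bar, and no gene passed after adjustment.

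A further 36 duct genes, grouped by role, showed how far the pattern extended. Onecut1, Cftr and Tff2 which encode a duct transcription factor, the chloride channel of duct cells and a trefoil factor, were listed at 0 in all libraries. The filter on low values was passed by 27 of the 36. Of the 33 above 0 in any library, 9 had KO+DNMT3A replicate 1 and WT replicate 1 as their highest libraries: Onecut2, Car2, Cldn3, Tspan8, Cd24a, Pkhd1, Cp, Wfdc15b and Anxa3. Over all 13233 genes tested, 8.27% had this pattern, while the 33 include genes that did not pass the filter. The lead was narrow for Cldn3, with 29.2 FPKM in WT replicate 1 and 28.5 FPKM in WT replicate 2. It was also narrow for Pkhd1, with 1.07 FPKM in KO+DNMT3A replicate 1 and 1.01 FPKM in KO replicate 1. Wfdc15b, at 10.9 FPKM in WT replicate 1, was under the 21.5 FPKM that 3 fragments correspond to there. Car2, a carbonic anhydrase of bicarbonate secretion, was the clearest of the 9, with 16.5 and 0.585 FPKM in KO+DNMT3A islets and 21.4 FPKM in WT replicate 1. It was listed at 0 in both KO libraries and in WT replicate 2. The summed level of all 36 was 985 and 587 FPKM in KO+DNMT3A islets, 646 and 288 FPKM in KO islets, and 453 and 498 FPKM in WT islets. This sum is dominated by a few abundant genes such as Spint2 and Atp1b1. Both were lowest in KO replicate 2 and WT replicate 1, the libraries low in insulin RNA, with 12.2 and 11.9 FPKM for Atp1b1. Cd24a, by contrast, was highest in WT replicate 1. Whether insulin content bears on these levels was not tested. The roles differed. The adhesion and membrane genes summed to 448 and 152 FPKM in KO+DNMT3A islets, 206 and 121 FPKM in KO islets, and 246 and 153 FPKM in WT islets, with WT replicate 1 second highest. The cilium genes summed to 10.3 and 11.6 FPKM in KO+DNMT3A islets, 7.82 and 8.23 FPKM in KO islets, and 14.2 and 9.28 FPKM in WT islets, with WT replicate 1 highest.

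Several of the 36 were above 0 in KO+DNMT3A replicate 1 alone, among them Wfdc2 at 15.7 FPKM, Krt20 at 7.03 FPKM, Krt23 at 3.66 FPKM, Sctr at 0.573 FPKM and Aqp5 at 0.389 FPKM. In WT replicate 1, 3 fragments would correspond to 14.4 FPKM for Wfdc2, 6.36 FPKM for Krt20 and 7.83 FPKM for Krt23, so Wfdc2 and Krt20 were above that limit and Krt23 below it. Sctr and Aqp5 were below even the 0.776 and 0.869 FPKM that 3 fragments correspond to in KO+DNMT3A replicate 1. Aqp1, a water channel, was high in WT replicate 1 alone, with 0.793 and 0.681 FPKM in KO+DNMT3A islets, 1.33 and 0 FPKM in KO islets, and 17.1 and 0 FPKM in WT islets. Aqp1 thus differed between the 2 libraries high in Krt19, as its value in WT replicate 1 was above the 4.67 FPKM that 3 fragments correspond to there. For Wfdc2 and Krt20 the margin over the 3-fragment limit in WT replicate 1 was small, and a listed 0 may be a failed estimate. A difference between these libraries was therefore not established for Wfdc2 and Krt20.

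**Figure D5:**
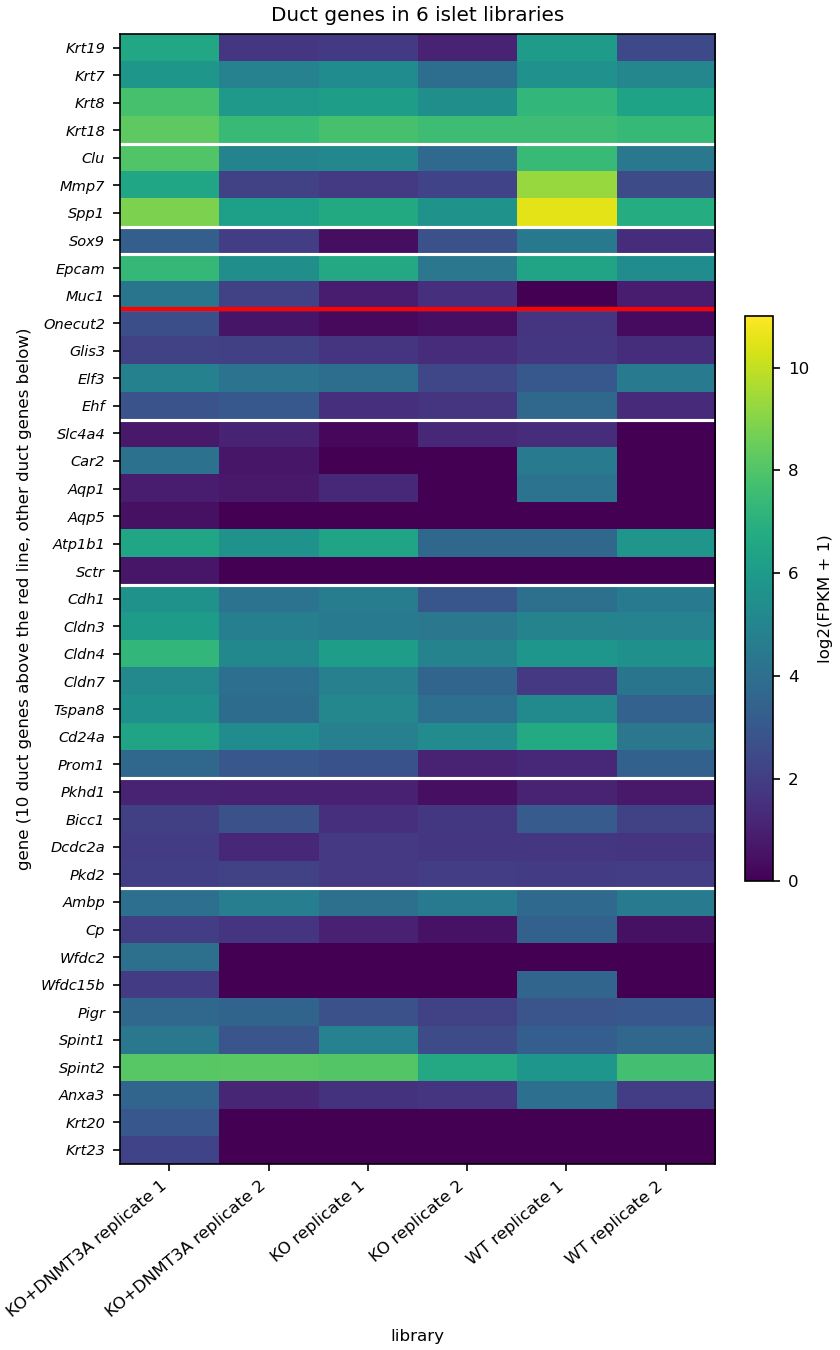
Levels of the 10 duct genes (above the red line) and of other duct genes above 0 in any library (below it) as log2(FPKM + 1), 1 row for each gene grouped by role and 1 column for each library, ordered KO+DNMT3A, KO, WT. Lighter cells are higher; Krt19, Mmp7, Clu and Car2 are lightest in KO+DNMT3A replicate 1 and WT replicate 1, and Wfdc2 and Krt20 in KO+DNMT3A replicate 1 alone.

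By group, 25 of the 27 other duct genes tested had higher means in KO+DNMT3A than in KO, with a median log2 difference of 0.79. Over all genes 68.2% had higher means, with a median of 0.19. Of the 27, 13 were higher without overlap, where 17.2% of all genes were, and none passed. Those with the smallest p were Pigr, the receptor that carries polymeric immunoglobulin across epithelia, and the epithelial transcription factors Elf3 and Ehf. Pigr had 12.3 and 10.6 FPKM in KO+DNMT3A islets and 5.63 and 3.43 FPKM in KO islets, a difference of 1.20. Ehf had 6.05 and 7.17 FPKM in KO+DNMT3A islets and 1.80 and 2.24 FPKM in KO islets, a difference of 1.33, and Elf3 27.4 and 17.3 against 14.8 and 4.07 FPKM, a difference of 1.35. In these 3 genes, unlike in Krt19, both KO+DNMT3A libraries were above both KO libraries. Dcdc2a and Spint1 had differences of -0.16 and -0.07.

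Between KO+DNMT3A and WT, 21 of the 27 had higher means, with a median of 0.36, where 64.8% of all genes had higher means, and none passed. Of the 27, 5 were higher without overlap, a share near the 19.2% of all genes. Among those with the smallest p were Spint2, a protease inhibitor, and Cldn7, a tight junction protein, with differences of 1.43 and 1.56. Both were lowest in WT replicate 1: Spint2 had 281 and 290.1 FPKM in KO+DNMT3A islets and 53.2 and 208 FPKM in WT islets. Both were next lowest in KO replicate 2, the other library low in insulin RNA, with 100 FPKM for Spint2 and 11.0 FPKM for Cldn7. Whether these levels follow insulin content was not tested. Cldn7 in WT replicate 1, at 2.50 FPKM, was under the 9.18 FPKM that 3 fragments correspond to there, which limits its differences from WT. Among those with lower means, Aqp1, Wfdc15b and Anxa3 had differences of -1.29, -0.83 and -0.65. Between KO and WT, 18 of the 27 had lower means, with a median of -0.43, and 4 of the 27 were lower without overlap. Over all genes 47.3% had lower means and 10.5% were lower without overlap. Bicc1, a cilium-associated RNA-binding protein, had 1.77 and 2.47 FPKM in KO islets and 7.87 and 3.46 FPKM in WT islets, a difference of -1.02. Car2 had a difference of -2.24 and Wfdc15b of -1.79, both set by WT replicate 1 alone. The Wfdc15b value there, 10.9 FPKM, was under the 21.5 FPKM that 3 fragments correspond to, which limits both Wfdc15b differences. Cldn7 and Spint2 had differences of 1.15 and 0.63. None passed here either.

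Genes whose pattern was most like that of the 10 were sought among 1685 others of sufficient level and spread, by Pearson's r over the 6 libraries with the mean standardised profile of the 10 genes. The 8 closest were Ly6a (r = 0.977), Mall (0.975), Cldn2 (0.969), Anxa8 (0.969), Scara3 (0.960), Gm38394 (0.957), Pmaip1 (0.956) and Sept5 (0.952). These r describe libraries that differ in depth and makeup, and rest largely on the 2 high ones. Cldn2, a tight junction protein of leaky epithelia, had 22.8 and 0.438 FPKM in KO+DNMT3A islets, 0.857 and 0 FPKM in KO islets, and 23.0 and 1.51 FPKM in WT islets. Ly6a, encoding the surface antigen Sca-1, had 13.1 FPKM in KO+DNMT3A replicate 1 and 7.10 FPKM in WT replicate 1, and was listed at 0 in the other 4 libraries. Anxa8, a calcium-dependent phospholipid-binding annexin, had 13.7 and 3.59 FPKM in the same libraries and was likewise listed at 0 in the rest. In WT replicate 1 the Ly6a and Anxa8 values were under the 12.8 and 6.52 FPKM that 3 fragments correspond to, and Cldn2 was above its 4.03 FPKM. Cldn2 was therefore high in both libraries high in Krt19, and Ly6a and Anxa8 were above that limit in KO+DNMT3A replicate 1 only. Of the 10 genes themselves, each of which enters the profile, Clu (0.994), Krt19 (0.981) and Krt8 (0.976) lay nearest to it, and Krt18 (0.743), Sox9 (0.638) and Muc1 (0.414) farthest from it.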

How the data were processed

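Poly-A RNA of isolated islets, extracted with the RNeasy Micro kit, was made into TruSeq libraries, according to the protocols in the labels. The authors deposited an FPKM value for every gene and library, as the column names of their table state. Per the submitters' processing notes, HISAT2 2.0.4, StringTie 1.3.0, edgeR and mm10 were used, in roles that are not given. Depth was inferred from genes with 1 annotated transcript, for which 84.3% to 91.7% of values up to 20 fragments were whole within 0.01, and no count test was run. Gene symbols and coordinates are those of GENCODE M21 (GRCm38).

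The 13233 genes reaching 1 FPKM in 2 or more libraries were transformed as log2(FPKM + 1). A single limma 3.58.1 model (R 4.3.3), with trend and robust empirical Bayes moderation, took all 6 libraries. Tests were two-sided, adjusted by Benjamini-Hochberg over all genes, at 0.05. The fit was tested on simulated data. All 10 genes are named, as are up to 3 other duct genes with the smallest p in each direction per comparison and the 8 genes most alike in pattern (mean of at least 2 FPKM, SD of at least 1 on the log2 scale). Members, lists and tests were chosen with earlier results of these data known. Alternatives were the pseudocount, filters, scaling, trend, groups fitted, replicate block and each library left out. Some values of other duct genes are not reported here.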

Additional observations from a re-analysis of the deposited data

How the results depend on the processing

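Under every alternative that kept 2 libraries in each group, 0 genes passed in each comparison. Under every alternative tried, the median over the 10 genes moved by less than its spread within groups (SD 1.32, log2). That spread exceeds the size of the medians themselves (1.24, 0.04 and -1.19), so it cannot show that they are stable. With single libraries left out, the median ran from 0.16 to 2.31 in KO+DNMT3A against KO. It ran from -0.91 to 1.13 in KO+DNMT3A against WT, where its sign changed, and from -2.16 to -0.19 in KO against WT. Of 476 values of single genes under alternatives, 249 did not move, most because the filter, trend, block or a library of a group not compared cannot alter a fold change. Of the 227 that moved, 186 kept their direction and 41 reversed; none crossed the threshold, and the cause was not tested. With both libraries low in insulin left out (chosen with the data known), KO against WT gave 0.28 for Krt7, 0.70 for Clu and 1.27 for Epcam, and -0.54 for Krt19, -0.19 for Krt8, -0.68 for Mmp7 and -0.11 for Spp1, which kept their direction; KO+DNMT3A against KO gave -0.0085 for Krt7 and -0.23 for Epcam; and KO+DNMT3A against WT gave 1.72 for Krt19, 1.75 for Mmp7, 0.72 for Spp1 and 1.23 for Sox9. Median scaling gave -0.0083 for Krt18 in KO+DNMT3A against KO, and -0.16 for both Krt7 and Krt8 in KO+DNMT3A against WT, where quantile normalization gave -0.090 and -0.0057.

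With each library left out in turn, the ranges for genes that reversed in KO+DNMT3A against KO were -0.0085 to 1.36 for Krt7, -0.21 to 0.59 for Krt18, -0.037 to 2.26 for Sox9 and -0.23 to 2.05 for Epcam. In KO+DNMT3A against WT they were -2.51 to 2.34 for Krt19, -0.44 to 0.51 for Krt7, -0.88 to 0.96 for Krt8, -0.0077 to 0.79 for Krt18, -1.0 to 2.12 for Clu, -5.03 to 1.75 for Mmp7, -3.04 to 0.72 for Spp1, -1.76 to 1.23 for Sox9 and -0.42 to 1.45 for Epcam. In KO against WT they were -1.32 to 0.048 for Krt7, -2.95 to 0.028 for Clu, -2.87 to 0.12 for Sox9 and -1.53 to 0.74 for Epcam. Muc1 kept its direction, at 0.93 to 3.08 in KO+DNMT3A against KO and 1.70 to 3.85 in KO+DNMT3A against WT, where a pseudocount of 0.1 gave 4.75. With 1 library left in a group, it is assumed to vary like the others. A filter at 5 FPKM removed Muc1, as did fitting KO and WT alone.

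Whether libraries of different groups are paired is not stated. Same-numbered deviations correlated at 0.32 between KO+DNMT3A and KO, 0.10 between KO+DNMT3A and WT, and -0.27 between KO and WT. These correlations cannot decide it, since each group gives only 1 difference between libraries. The column names use another numbering, in which KO replicate 2, KO+DNMT3A replicate 2 and WT replicate 1 share a number. With the replicate number as a block 0 genes passed in each comparison, and 0 with the KO numbers crossed, an alternative added after seeing the data. Neither block placed all the libraries that share a column number together, so pairing by that number was not tested. Depth limits WT replicate 1 most, where values under about 2 FPKM rest on single fragments for a transcript of 2 kb.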

Other observations

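Keratins outside the 10 genes were looked at after the values were seen. Of 50 other keratin genes in the table, 37 were listed at 0 in all libraries and 9 reached at least 1 FPKM in any. Krt17, a type I keratin of basal and stressed epithelia, had 10.7 and 1.15 FPKM in KO+DNMT3A islets and 5.27 and 0.662 FPKM in WT islets. It was listed at 0 in both KO libraries. Its 2 highest values were in the libraries with the highest Krt19. In WT replicate 1, however, a single fragment of a 2 kb transcript corresponds to 2.04 FPKM, so the Krt17 value there rests on few fragments. Krt10, a keratin of stratified epithelia, had 3.98 and 5.13 FPKM in KO+DNMT3A islets, 6.36 and 3.06 FPKM in KO islets, and 0 and 6.38 FPKM in WT islets. The 0 listed in WT replicate 1 is limited by the same depth, so its place relative to the other libraries was not resolved.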
